A study of Rattus norvegicus with 20 samples.

Results

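The comparison of 24 h with 6 h of diclofenac at reference concentration 1/5 used 6 of the 20 arrays of a study of cultured rat heart cells. Its members were chosen by title: 3 arrays labelled diclofenac at 1/5 for 24 h and 3 arrays labelled diclofenac at 1/5 for 6 h. Both groups were primary cultures from the hearts of neonatal rats, grown for 1 day in DMEM medium before the drug was added, and the labels give the cell type as cardiomyocyte, the contracting cell of heart muscle. The other 14 arrays were 2 of untreated cells and 3 each at 24 h and 6 h of concentration 1 and concentration 1/25. The labels give neither a strain nor a molar value for the reference concentration, and they do not say whether replicate arrays stand for different cultures or animals. The p-values therefore measure the spread between arrays of the same group, pooled over all 20 arrays, which may be technical. Every culture in the comparison had received the drug, so the difference holds time with the drug together with time in culture, and these cannot be told apart.

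Diclofenac is a non-steroidal anti-inflammatory drug. It blocks the cyclooxygenases, the enzymes encoded by Ptgs1 and Ptgs2 that make the precursor of the prostaglandins, and carries a known cardiovascular risk. Cultures of neonatal heart hold fibroblasts, endothelial cells and other cells beside the beating myocytes, and the myocytes themselves leave the cell cycle around birth.

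Total RNA was amplified, labelled with the dye Cy3 and read on 1-colour Agilent arrays with 43379 non-control spots. A level below is the log2 of the background-corrected scanner signal minus the 75th percentile of the array, so that 0 is the 75th percentile. A change is the mean level at 24 h minus the mean level at 6 h, with the SE of the fit. Genes were tested with limma, fitted over all 20 arrays, and a gene was said to rise or fall where the p adjusted by the Benjamini-Hochberg method over 30408 genes was under 0.05.

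The arrays at 24 h were dimmer and less alike than those at 6 h. The share of spots well above background was 76.5%, 81.4% and 64.1% on the first, second and the third array at 24 h, against 84.7%, 82.1% and 85.9% at 6 h. The groups did not overlap (exact permutation p = 0.1, two-sided, the smallest that 3 against 3 arrays can give). The 75th percentile of the signal was 9623, 13095 and 3165 at 24 h, against 14925, 14807 and 16040 at 6 h. Over genes, the SD of the difference from the 6 h mean was 1.26, 0.70 and 2.28 for the 3 arrays at 24 h, while each array at 6 h differed from the mean of the other 6 h arrays with an SD of 0.47, 0.64 and 0.62. The SDs at 24 h also hold the difference between the groups. Pearson correlations between arrays were 0.92, 0.82 and 0.74 within 24 h and 0.95 to 0.97 within 6 h. With the 6 h arrays, the second array at 24 h correlated at 0.95 to 0.96 and the third at 0.69 to 0.74. The third array at 24 h therefore stood apart from the rest. All 3 arrays at 24 h lay on one slide and were scanned on the second scan day, and all 3 arrays at 6 h lay on another slide and were scanned on the first, so time, slide and scan day cannot be told apart in this comparison.

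**Figure D1:**
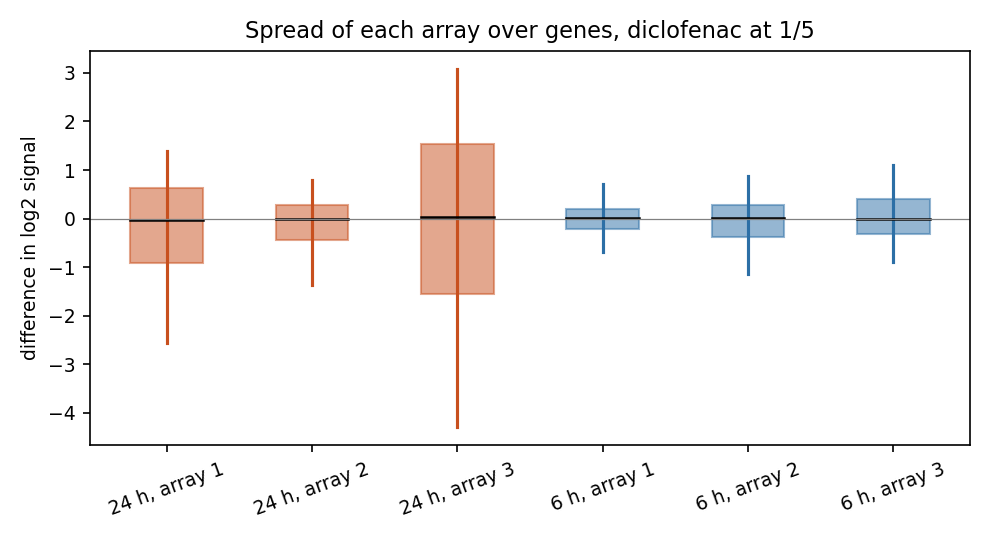
Spread over genes of the difference in log2 signal for each array (y axis), for the 3 arrays at 24 h against the mean of the 6 h arrays and for each array at 6 h against the mean of the other 6 h arrays (x axis). Boxes span the middle 50% of genes, black bars mark the median, and lines leave out the lowest and highest 5% of genes. The third array at 24 h runs from -4.30 to 3.09 and the second from -1.37 to 0.79, against -1.13 to 0.88 for the second array at 6 h.

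At 24 h, 15 genes rose and 15 fell. They were 0.0987% of the genes tested (0.0493% in each direction). The arrays of the groups did not overlap for any of the 30. Over all genes, 15.5% had all arrays at 24 h above all arrays at 6 h and 12.7% had them below. The 30 genes were picked by p, so the lack of overlap is not separate support. The genes that rose had a median change of 2.61 and those that fell a median change of -2.54 (-2.25 with spots below background set at their bound), beside a median of -0.09 over all genes. Of the 30, 12 had a gene symbol and 18 were known only as expressed sequence tags (ESTs) or transcript contigs. With an adjusted p under 0.1 there were 600 genes, and 10037 genes (33%) had an unadjusted p under 0.05, 5508 higher (18.1%) and 4529 lower (14.9%). The count depended on single arrays. Without the third array at 24 h, 18 genes passed and 13 of them were among the 30. Without the second array at 24 h, the one closest to the 6 h arrays, 11658 genes passed, and without the first, second or the third array at 6 h, 2, 8 and 9 genes passed. The split between directions also moved with the scaling of the arrays: 19 higher and 4 lower when scaled to the median, 153 and 56 after quantile normalization, and 31 and 77 with the 75th percentile taken over probes detected on all 20 arrays.

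**Figure D2:**
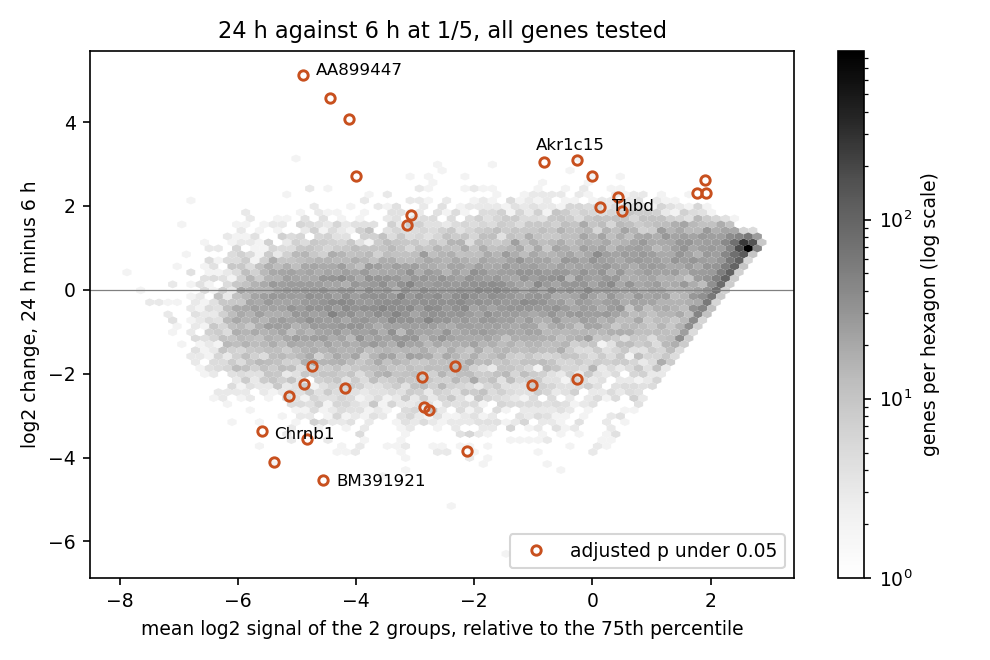
Change in log2 signal, 24 h minus 6 h at 1/5 (y axis), against the mean level of the groups relative to the 75th percentile (x axis), for all genes tested. Grey hexagons show the number of genes on a log scale and orange circles the 30 genes with an adjusted p under 0.05. The dark edge at the upper right is made of spots at the scanner's ceiling, where 1186 genes saturated on all 6 arrays have a median change of 1.02.

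Akr1c15, an aldo-keto reductase of the family that reduces steroids and other carbonyl compounds, rose at 24 h. Its level was 0.42, -0.10 and 1.78 on the 3 arrays at 24 h, against -2.51, -2.28 and -2.21 on the 3 arrays at 6 h. All arrays at 24 h lay above all arrays at 6 h by more than the whole range of the 6 h arrays. The change was 3.04 ± 0.39 (SE, limma adjusted p = 0.00472). Without the third array at 24 h it was 2.50 ± 0.28 (limma adjusted p = 0.00242), and without the first array at 6 h the gene did not pass (limma adjusted p = 0.0610).

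The EST BE110944 rose beside it. Its level was 1.27, 0.47 and 2.12 at 24 h, against -1.90, -1.90 and -1.61 at 6 h, and the change was 3.09 ± 0.42 (SE, limma adjusted p = 0.00592). The array files place the Akr1c15 probe at chr17:77352210-77352269 and the BE110944 probe at chr17:77352282-77355222 (build rn3, as for all positions here), 13 bases apart, with the coordinates written in opposite orders. The probes are shown because their readings moved together from neighbouring positions.
Akr1c15: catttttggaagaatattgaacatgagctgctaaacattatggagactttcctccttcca
BE110944: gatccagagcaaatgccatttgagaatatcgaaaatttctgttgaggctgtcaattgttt
No run of 16 or more bases was shared by these sequences on either strand.

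A pair of ESTs on chromosome 13 rose together. AA899447 had the largest fitted change, although without a measured level at 6 h it cannot be ranked against BF404426 or AI229321. Its level was -2.88, -3.10 and -0.996 at 24 h, against -6.70, -7.85 and -7.81 at 6 h. No array at 6 h read the spot well above background, so the signal was at least 14.1-fold higher at 24 h, with a fitted change of 5.13 ± 0.58 (SE, limma adjusted p = 0.00243). The EST AI229321 had levels of -2.74, -2.80 and -0.70 at 24 h, against -6.28, -6.42 and -5.78 at 6 h, where 1 of 3 arrays read it well above background. Its change was 4.08 ± 0.55 (SE, limma adjusted p = 0.00592). Both probes come from the same place on chromosome 13, AA899447 at chr13:69376372-69376431 and AI229321 at chr13:69376366-69376425, and they read opposite strands. They are shown with their shared 54 bases in capitals, each the reverse complement of the other.
AA899447: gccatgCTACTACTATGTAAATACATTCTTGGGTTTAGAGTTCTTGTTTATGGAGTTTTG
AI229321: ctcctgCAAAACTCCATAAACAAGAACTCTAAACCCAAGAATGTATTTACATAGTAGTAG
The nearest probe with a gene symbol was that of Cacna1e, a voltage-gated calcium channel subunit, 4981 bases from AA899447, and its change was -0.01 (limma adjusted p = 0.990). Without the third array at 24 h both ESTs passed, with changes of 4.47 ± 0.53 for AA899447 and 3.39 ± 0.47 for AI229321.

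Thbd, which encodes thrombomodulin, the endothelial receptor that turns thrombin towards activating protein C, also rose. Its level was 0.66, 0.68 and 2.01 at 24 h, against -0.90, -0.51 and -1.17 at 6 h. The first and second arrays at 24 h were within 0.02 of each other and the third lay above them. The change was 1.98 ± 0.34 (SE, limma adjusted p = 0.0366), and 1.53 ± 0.24 without the third array at 24 h (limma adjusted p = 0.0362). Leaving out any 1 array at 6 h ended the call, with limma adjusted p of 0.0734 to 0.176. The probe lies at chr3:137064542-137064601.

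Or13a26b, an olfactory receptor gene, was the other named gene that rose. Its level was -2.31, -2.62 and -2.15 at 24 h, against -3.90, -3.82 and -4.01 at 6 h, with a change of 1.55 ± 0.26 (SE, limma adjusted p = 0.0366). The third array at 24 h was close to the first here. Without the first array at 24 h limma adjusted p was 0.0561, and without any 1 array at 6 h it was 0.0869 to 0.176, so the call was lost in each. The remaining 9 genes that rose were 8 ESTs and 1 transcript contig with changes of 1.79 to 4.56. Among them BF404426 had levels of -2.53, -4.06 and 0.13 at 24 h, against -6.85, -6.62 and -6.69 at 6 h, and was at least 15.8-fold higher. BE099608 was saturated on all 3 arrays at 24 h, so its change of 2.61 is a lower bound (at least 6.10-fold).

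Of the genes with a symbol and the next smallest p, none passed the threshold, and they are given as values. Adgrl3, an adhesion receptor of the latrophilin family, had a change of 2.05 ± 0.38 (SE, limma adjusted p = 0.0512), although its other probe read -1.04. Pou3f4, a POU-domain transcription factor, had 2.75 ± 0.52, and Igfbp4, which binds insulin-like growth factors, 2.49 ± 0.49, with its other probe at 0.05. Lck, a tyrosine kinase of T cells, had 2.17 ± 0.44 and Ranbp3l 2.78 ± 0.59. Hsd17b4, a peroxisomal enzyme of fatty acid beta-oxidation, had 1.99 ± 0.42. Unc5c, a netrin receptor, had 1.46 ± 0.31 and Aox1, an aldehyde oxidase that also acts on drugs, 1.30 ± 0.28. Slc24a3, a sodium, potassium and calcium exchanger, had 1.61 ± 0.33, but its other probe read -1.70 and the mean of its probes -0.05, so no direction is given for it. Arrays that do not overlap were a condition for naming all 9.

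**Figure D3:**
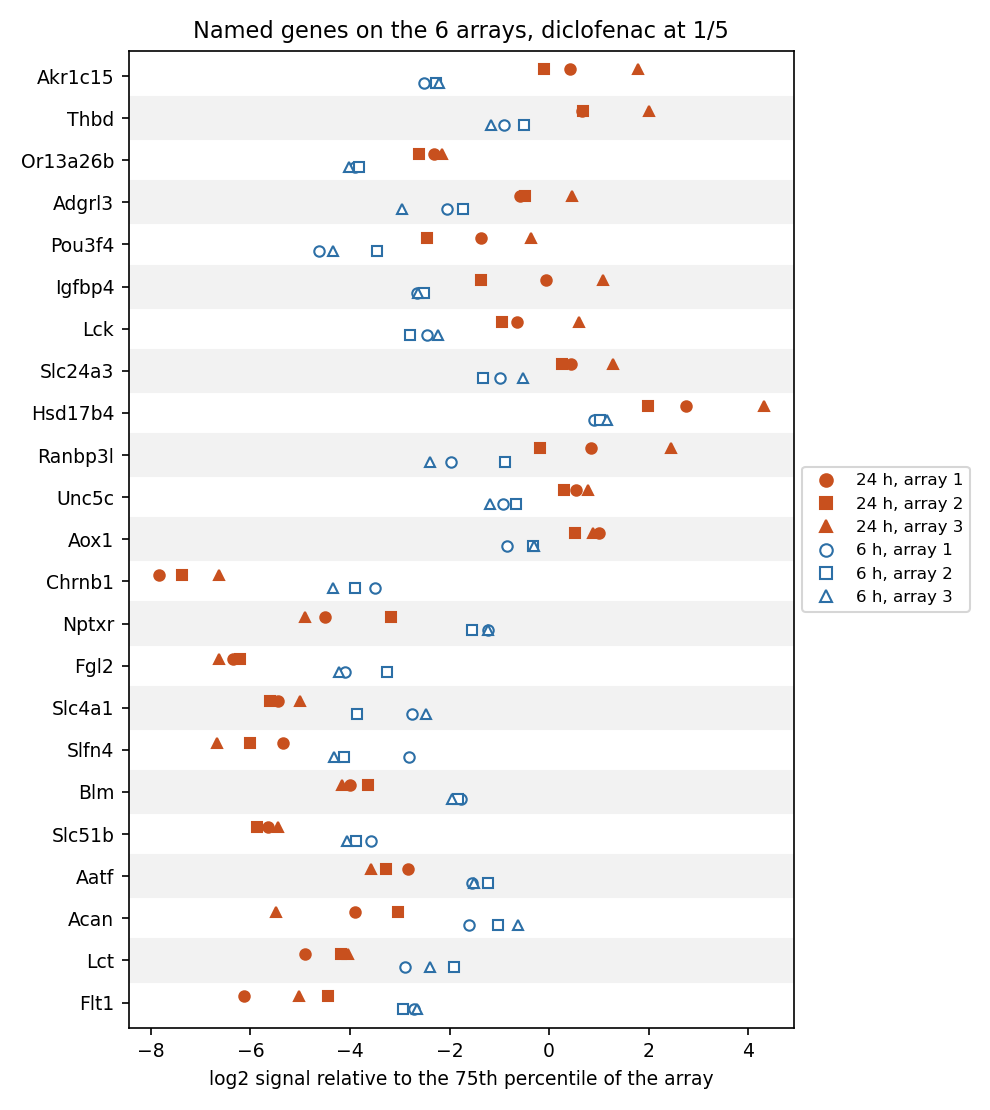
Level of named genes (rows) on single arrays, as log2 signal relative to the 75th percentile of the array (x axis), with filled symbols for the 3 arrays at 24 h and open symbols for the 3 arrays at 6 h. Akr1c15, Thbd and Or13a26b, and the genes from Chrnb1 to Aatf, passed the threshold. The third array at 24 h (filled triangles) is the highest of the 6 for 11 of the first 12 genes, Aox1 being the exception.

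Of the named genes that fell, Chrnb1 had the largest fitted change, although without a measured level at 24 h it cannot be ranked. It encodes the beta subunit of the muscle nicotinic acetylcholine receptor, the channel that opens at the nerve-muscle junction. Its level was -7.84, -7.38 and -6.63 at 24 h, against -3.50, -3.89 and -4.35 at 6 h. No array at 24 h read it well above background and all 3 arrays at 6 h did, so the signal was at least 3.04-fold lower at 24 h, with a fitted change of -3.37 ± 0.39 (SE, limma adjusted p = 0.00243). The call held without any 1 of the 6 arrays, with limma adjusted p of 0.00115 to 0.0390. The probe lies at chr10:56619813-56620203 and its sequence is shown because this reading kept its call in all of those fits.
Chrnb1: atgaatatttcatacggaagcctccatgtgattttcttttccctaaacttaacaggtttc

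Blm and Aatf also fell. Blm, a helicase of homologous recombination, had levels of -3.99, -3.64 and -4.15 at 24 h, against -1.78, -1.82 and -1.94 at 6 h. Both groups were tight, and the change was -2.08 ± 0.37 (SE, limma adjusted p = 0.0396). Aatf, a nuclear protein that restrains apoptosis, had -2.83, -3.28 and -3.58 at 24 h, against -1.55, -1.23 and -1.50 at 6 h, a change of -1.81 ± 0.33 (limma adjusted p = 0.0428). Without the third array at 24 h the changes were -1.97 for Blm and -1.63 for Aatf, and limma adjusted p was 0.0703 for both, so these calls were lost. They were also lost without any 1 array at 6 h (limma adjusted p of 0.123 to 0.176), and Blm without the first array at 24 h (0.0727).

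Of the other named genes that fell, Slc4a1 encodes the anion exchanger of the red cell membrane. Its level was -5.44, -5.61 and -5.01 at 24 h, against -2.75, -3.86 and -2.47 at 6 h, a change of -2.33 ± 0.41 (SE, limma adjusted p = 0.0396), while its other probe read -0.75. Fgl2, a fibrinogen-like protein of immune and endothelial cells, was not well above background at 24 h and was at least 3.16-fold lower, with a change of -2.54 ± 0.45 and -1.34 at its other probe. Nptxr, a pentraxin receptor of neurons, fell by 2.87 on the log2 scale and Slc51b, a subunit of the bile acid transporter of the basolateral membrane, by 1.82. Slfn4, a Schlafen family gene listed under the older symbol Slfn3, had -5.35, -6.01 and -6.66 at 24 h, against -2.82, -4.12 and -4.33 at 6 h, a change of -2.25 ± 0.38. Without the third array at 24 h none of these 5 passed, with limma adjusted p of 0.0509 for Slc4a1 and for Slc51b up to 0.0924 for Nptxr. The changes in that fit were -2.50 for Slc4a1, -2.42 for Fgl2, -2.51 for Nptxr, -1.92 for Slc51b and -1.93 for Slfn4. Without the first array at 24 h, Slc4a1, Fgl2, Nptxr and Slc51b did not pass (0.0628 to 0.0817). Without any 1 array at 6 h, Fgl2, Nptxr and Slc51b did not pass (0.0965 to 0.212). Slc4a1 was lost without the first or the third array at 6 h (0.190 and 0.148) and Slfn4 without the first or the second (0.176 and 0.0734). Of the 3 arrays at 24 h, 1 read Slfn4 well above background, and 2 read Slc4a1, Nptxr and Slc51b so.

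Of the 6 genes without a symbol that fell, BF390510 and BM391921 had a named neighbour close by. For BF390510 the level was -1.93, -2.32 and -2.23 at 24 h, against 0.41, 0.15 and -0.25 at 6 h, a change of -2.26 ± 0.37 (SE, limma adjusted p = 0.0303). The probe at chr1:233848096-233848155 lies 20 bases from that of Il33, an alarmin of the interleukin-1 family, whose coordinates are written in the opposite order. Il33 had levels of -1.86, -0.92 and -3.70 at 24 h, against 0.40, 0.39 and 0.07 at 6 h, a change of -2.45 ± 0.50 (limma adjusted p = 0.0592). Il33 was picked for its position once its values were known. The neighbouring readings were lower at 24 h on every array. BF393107 fell to -7.73, -7.87 and -6.71 at 24 h, against -2.94, -3.51 and -3.53 at 6 h, and was at least 4.57-fold lower (limma adjusted p = 0.00472). Its probe, at chr1:84564649-84564708, holds a 16-base run 2 times, shown in capitals, and is printed because of that repeat.
BF393107: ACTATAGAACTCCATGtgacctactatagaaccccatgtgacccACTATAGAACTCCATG
BM391921 was at least 9.40-fold lower, BF556130 at least 5.53-fold lower, AW142932 had a change of -3.85 ± 0.69 and TC552799 of -2.13 ± 0.38. For AW142932 the third array at 24 h read -6.64, not well above background. Without that array its change was -2.54 ± 0.24.

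The named genes that were lower without passing were Acan, Flt1 and Lct. Acan encodes aggrecan, a matrix proteoglycan, and had -3.90, -3.03 and -5.49 at 24 h, against -1.61, -1.03 and -0.62 at 6 h, a change of -3.05 ± 0.57 (SE, limma adjusted p = 0.0532). Flt1, a receptor for vascular endothelial growth factor, had -6.13, -4.44 and -5.02 at 24 h, against -2.71, -2.94 and -2.65 at 6 h, a change of -2.43 ± 0.46 (limma adjusted p = 0.0533). Its other probe read -1.46. Of the 3 arrays at 24 h, 1 read Flt1 well above background and 2 read Acan so. Lct, the intestinal enzyme lactase, had -1.97 ± 0.37.

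The same contrast of 24 h with 6 h could be read at the other concentrations on other arrays. Those arrays also entered the fit through the shared estimate of the spread, so the choice of the 30 genes was not independent of them. At 1/25, all 15 genes that rose at 1/5 had a positive change and all 15 that fell had a negative one, where 49.7% and 50.3% of all genes had these signs. At 1, the same was true of all 15 and all 15, where 40.5% and 59.5% of all genes had these signs. The arrays at 6 h of 1 were scanned on the first scan day and those at 24 h on the second, as at 1/5. Time and scan day therefore cannot be told apart at 1 either, and 1 array at 6 h of 1 shared the slide of the 6 h arrays at 1/5. The median of the genes that rose was 1.64 at 1/25, 2.61 at 1/5 and 1.88 at 1, and that of the genes that fell was -1.36, -2.54 and -1.21. The genes were chosen for passing at 1/5, so the sizes at 1/5 are not compared with the others. Of the 30 genes 0 passed the threshold at 1/25, where no gene passed (limma, with 3010 genes or 9.9% at an unadjusted p under 0.05). At 1, 7 of the 30 passed, all higher, where 71 genes passed in all (17 higher or 0.0559%, 54 lower or 0.178%). These were Akr1c15, Thbd, AA899447, AI229321, BF404426, BI285141 and TC523765.

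At 1/25, 1 array at 24 h was scanned on the same day as the 3 arrays at 6 h. Between these 4 arrays all 15 genes that rose at 1/5 had a positive difference and all 15 that fell a negative one, with medians of 1.97 and -1.73 (47.8% and 52.1% of all genes had these signs). This 24 h array shared the slide of the 24 h arrays at 1/5.

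**Figure D4:**
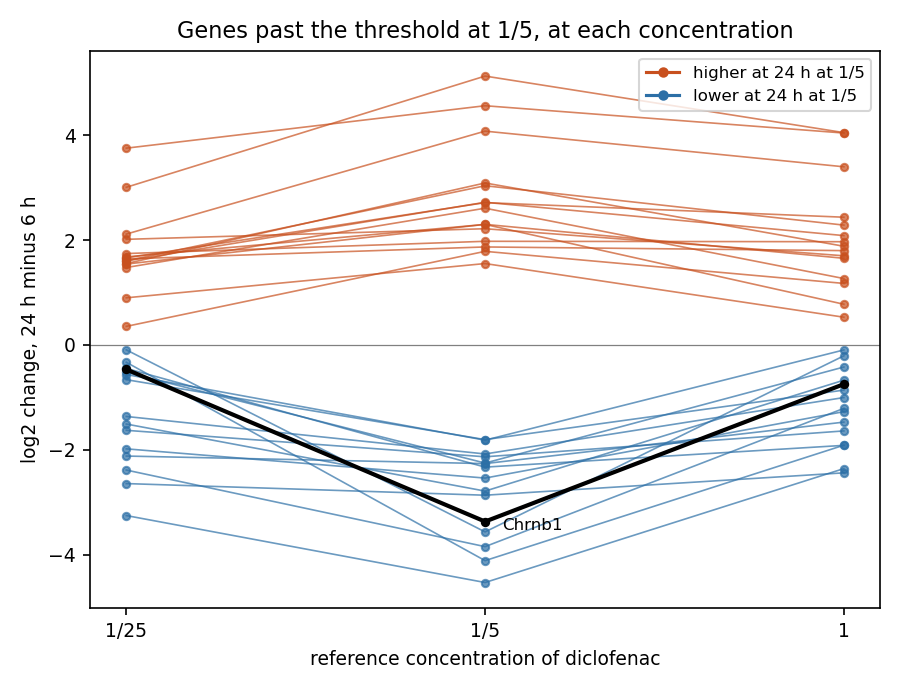
Change in log2 signal, 24 h minus 6 h (y axis), at reference concentrations 1/25, 1/5 and 1 (x axis), for the 15 genes that rose (orange) and the 15 that fell (blue) at 1/5, each concentration on its own 6 arrays. Every line keeps its sign at the 3 concentrations. Lines join fitted values. Chrnb1 (black) reads -0.47, -3.37 and -0.75, but no array at 24 h of 1/5 read it well above background, and its bound there was -1.60.

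The difference between concentrations was tested directly. The change at 1/5 minus that at 1/25 passed for 0 of 30408 genes (limma, 630 genes or 2.07% at an unadjusted p under 0.05). RGD1562030, TC537999, LOC681900 and Chrnb1 had the 2 smallest p in each direction, each with a limma adjusted p of 0.914. RGD1562030 had a difference of 2.42 ± 0.55. The fitted differences of the other 3 rest on readings that were not well above background at 1/5, on any of the 6 arrays for TC537999 and on any array at 24 h for LOC681900 and Chrnb1, and no size is given for them. The change of Chrnb1 at 1/5 was measured as a bound of -1.60, beside -0.47 at 1/25. Chrnb1 had levels of -5.64, -4.68 and -5.52 at 24 h of 1/25, against -4.67, -5.11 and -4.65 at 6 h. At 1 it had -5.35, -4.78 and -4.75 at 24 h, against -4.78, -3.69 and -4.17 at 6 h. Of the arrays at 24 h, 2 of 3 at 1/25, none of 3 at 1/5 and 3 of 3 at 1 read Chrnb1 well above background.

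The change at 1/5 minus that at 1 passed for 1 gene (0.00329%, limma, with 1556 genes or 5.12% at an unadjusted p under 0.05). It was LOC291521, annotated on the array as resembling a spindlin-like protein, with a fitted difference of 5.09 ± 0.64 (SE, limma adjusted p = 0.0120). At 1/5 its levels were -7.95, -8.28 and -6.70 at 24 h, against -7.97, -7.92 and -8.24 at 6 h, and no array of either group read it well above background. At 1 they were -8.49, -8.45 and -8.57 at 24 h, against -4.32, -2.96 and -4.15 at 6 h. Of these 4 groups only the arrays at 6 h of 1 read it well above background, so the gene had no measured change at 1/5.

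The labelled cell type was checked against marker genes. All 10 cardiomyocyte markers (such as Myh6, Tnnt2 and Ttn) were read well above background on all 3 arrays at 6 h, and 8 of 10 on all 3 arrays at 24 h. Their summed signal, in multiples of the 75th percentile of the array, was 19.8, 19.1 and 69.0 at 24 h, against 18.7, 19.0 and 16.7 at 6 h. Their median change was -0.61, opposite in sign to the higher sum, with array medians of -0.09, 0.07 and -1.52 at 24 h, and it was 0.01 without the third array. Markers of other cells were present too: 11 of 11 fibroblast markers, 9 of 9 of smooth muscle, 10 of 11 of endothelium and 7 of 10 of leukocytes were well above background on all arrays at 6 h. The summed fibroblast signal was 31.7, 27.2 and 98.2 at 24 h, against 24.4, 25.6 and 22.6 at 6 h. Sums were high on the third array at 24 h, where the 75th percentile was low and the genes saturated on all 6 arrays had a median level of 4.35, against 2.03 to 2.16 at 6 h; the part of saturation in the sums was not tested. The arrays measured RNA of whole cultures, so fewer cells of a type and less RNA per cell cannot be told apart.

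Gene lists of pathways and cell types are described by their counts and medians beside those of all genes. Over the 28 lists, 2 members passed the threshold: Thbd of the endothelial list rose and Slc4a1 of the erythroid list fell. The median difference from the 6 h mean was above 0 on all 3 arrays at 24 h for 6 lists, below 0 on all 3 for 7 lists and on both sides of 0 for 15. Over all genes it was -0.02, 0.00 and 0.04 on the 3 arrays at 24 h. All genes together had a median of -0.09, or -0.04 without the third array at 24 h, and 52.9% of all genes had a change below 0.

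**Figure D5:**
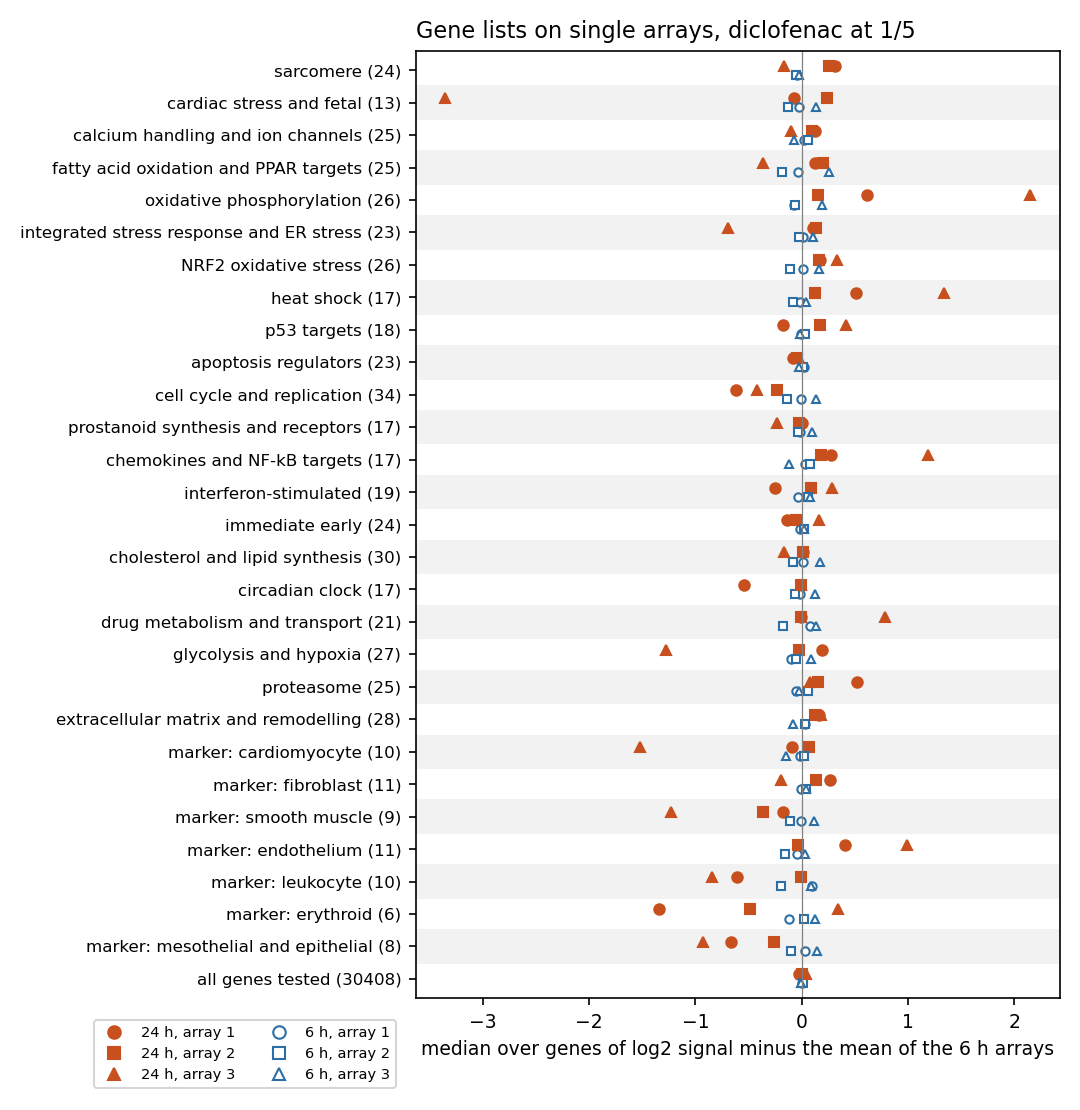
Median over the genes of each list (rows, with the number of genes tested in brackets) of the level minus the mean of the 6 h arrays (x axis), with filled symbols for the arrays at 24 h and open symbols for the arrays at 6 h. The third array at 24 h (filled triangles) lies farthest out for oxidative phosphorylation at 2.15 and for cardiac stress genes at -3.35. For cell cycle genes the 3 arrays at 24 h lie below the 3 arrays at 6 h.

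Cell cycle and replication genes had a median change of -0.53 over 34 genes, and -0.53 again without the third array at 24 h. Their median difference from the 6 h mean was -0.62, -0.23 and -0.42 on the 3 arrays at 24 h, against -0.01, -0.14 and 0.13 at 6 h. Of the 34 genes 22 had a change below 0, and 11 were lower and 3 higher at an unadjusted p under 0.05, where 14.9% of all genes were lower and 18.1% higher. Leaving out the third array at 24 h, 7 were lower and 1 higher, where 2478 of all 30408 genes were lower and 2268 higher. None passed the threshold. Kif11, a motor of the mitotic spindle, had -7.96, -6.67 and -6.79 at 24 h, against -3.51, -4.15 and -4.32 at 6 h. Its spot did not clear background at 24 h, so it was at least 2.88-fold lower (limma adjusted p = 0.0599). Ccnd2, a G1 cyclin, had -3.35, -1.80 and -5.29 at 24 h, against 0.52, -0.19 and 0.78 at 6 h, a change of -3.85 ± 0.88 (limma adjusted p = 0.0753). Mcm4, a subunit of the replicative helicase, had a change of -2.26, while Ccnb1, a mitotic cyclin, and Pcna, the replication clamp, were at 1.23 and 1.34. Pcna was at 0.38 without the third array at 24 h.

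The 11 endothelial markers had a median change of 0.35, with array medians of 0.41, -0.03 and 0.99 at 24 h, and of -0.05 without the third array. Thbd was the one that passed. Kdr, the main receptor for vascular endothelial growth factor, had 2.47, 1.97 and 3.32 at 24 h, against 0.93, 1.29 and 0.71 at 6 h, a change of 1.61 ± 0.41 (limma adjusted p = 0.0884). Tie1, a receptor kinase, and Vwf, the adhesive blood protein von Willebrand factor, both had a change of 1.54, with arrays that did not overlap. All arrays at 24 h lay above all arrays at 6 h for 15.5% of all genes. Without the third array at 24 h the changes were 1.246 for Kdr, 1.197 for Tie1 and 1.088 for Vwf. Flt1, on the same list, had -2.43 ± 0.46 (-2.52 without the third array), also with arrays that did not overlap. At 24 h, 1 of 3 arrays read Flt1 well above background. Over all genes, 12.7% had all arrays at 24 h below all arrays at 6 h. Of the 11 markers 8 had a change above 0 and 3 below. Pecam1 and Cdh5, junction proteins that define the endothelium, had changes of 0.36 and 0.10 with overlapping arrays, and of 1.26 and -0.05 without the third array at 24 h. The summed endothelial signal was 7.63, 5.96 and 14.7 at 24 h, against 2.94, 3.62 and 2.65 at 6 h. This sum includes Thbd itself and is weighted towards the brightest markers, such as Kdr. The median level of the 11 markers was -4.36, -4.44 and -3.40 at 24 h, against -4.19, -4.52 and -4.39 at 6 h. The part of the number of endothelial cells in the rise of Thbd was not tested.

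The 6 erythroid markers had a median change of -0.65 (-1.01 without the third array at 24 h), with array medians of -1.34, -0.49 and 0.34 at 24 h, and their summed signal was 0.65, 1.94 and 2.11 at 24 h, against 2.04, 2.42 and 1.93 at 6 h. Alas2, the first enzyme of haem synthesis in red cells, had a change of 0.12 and Ahsp, which stabilises alpha globin, -0.11, both with overlapping arrays. They were at -0.21 and -0.80 without the third array at 24 h. The part of red cell precursors in the fall of Slc4a1 was not tested. The 10 leukocyte markers had a median change of -0.14 (-0.37 without the third array) and the 8 mesothelial and epithelial markers -0.73 (-0.58). The 9 smooth muscle markers had -0.82, with array medians of -0.18, -0.37 and -1.23 at 24 h, and -0.09 without the third array.

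Matrix and remodelling genes had changes from -4.48 to 1.95. Postn, which encodes periostin, a matrix protein of activated fibroblasts, had -2.38, -0.98 and -5.07 at 24 h, against 1.05, 0.94 and 1.19 at 6 h, a change of -3.87 ± 0.79 (limma adjusted p = 0.0592). Without the third array at 24 h the change was -2.74 ± 0.64 (limma adjusted p = 0.110). Ccn2, the connective tissue growth factor, had 1.83, 1.33 and 0.11 at 24 h, against 0.09, -0.30 and -0.29 at 6 h, a change of 1.25 ± 0.39 (limma adjusted p = 0.106). Here the third array at 24 h was the one nearest the 6 h arrays. The median change over the 28 genes of the list was 0.23, 0.03 without the third array, and -0.13 without the 4 genes saturated on all 6 arrays.

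Among genes of energy metabolism, the 26 oxidative phosphorylation genes had a median change of 0.91, from array medians of 0.61, 0.15 and 2.15 at 24 h, and 0.36 without the third array. At an unadjusted p under 0.05, 11 were higher and 2 lower, where 18.1% and 14.9% of all genes were. Without the third array 4 were higher and 1 lower, where 2268 and 2478 of all 30408 genes were. None passed the threshold. Cox8a and Cox5b, subunits of cytochrome oxidase, had changes of 2.05 ± 0.64 and 1.91 ± 0.56, and Atp5f1b, the catalytic subunit of ATP synthase, had -2.47 ± 0.89. These were 1.25, 1.18 and -1.17 without the third array. The 25 fatty acid oxidation and PPAR target genes had a median change of -0.12, and of 0.19 without the third array. Among them Cpt1b, the muscle enzyme that carries fatty acids into mitochondria, had 1.74, 1.33 and 3.51 at 24 h, against 0.44, 0.71 and 0.12 at 6 h, a change of 1.77 ± 0.45 (limma adjusted p = 0.0896) and of 1.11 without the third array. Cpt1a, the liver form, had -1.67 ± 0.70. The 27 glycolysis and hypoxia genes had a median change of -0.28, and of 0.02 without the third array, with Hk1 at 1.68 ± 0.54 (1.05 without it) and Hk2 at -1.55 ± 0.39, both hexokinases. Brightness moved with these values: the brightest 20% of all genes had a median change of 0.74 (1.48 on the third array at 24 h) and the dimmest 20% had -0.39. The part of signal brightness in the list medians was not tested.

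The 24 sarcomere genes had a median change of 0.03, and of 0.32 without the third array at 24 h, with Tnnc1 at 1.37 ± 0.54, Ldb3 at 0.66 ± 0.26, Tnni1, the fetal form of troponin I, at -2.06 ± 0.78 and Mybpc3 at -2.84 ± 1.24. Tnnc1 was at 0.55, Tnni1 at -0.68 and Mybpc3 at -1.22 without the third array. The 13 cardiac stress and fetal genes had a median change of -0.94, from array medians of -0.07, 0.24 and -3.35 at 24 h, and 0.04 without the third array. Edn1, the peptide endothelin-1, had -3.16, -1.24 and -6.10 at 24 h, against -1.14, -1.24 and -0.88 at 6 h. Its low values lay on the first and the third array. In the 25 calcium handling and ion channel genes the median change was 0.07, and 0.01 without the third array. Ryr2, the calcium release channel, had -2.68, -1.95 and -3.61 at 24 h, against -1.23, -0.85 and -1.39 at 6 h, a change of -1.59 ± 0.47 (limma adjusted p = 0.105). Pln, which restrains the calcium pump, had 2.25, 2.21 and 3.57 at 24 h, against 1.62, 1.71 and 1.66 at 6 h, a change of 1.01 ± 0.34 (limma adjusted p = 0.108) and of 0.57 without the third array.

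The cyclooxygenase genes, whose products the drug blocks, were not past the threshold. Ptgs1, the constitutive cyclooxygenase, had 0.74, 1.26 and -2.10 at 24 h, against 1.49, 1.57 and 1.46 at 6 h, a change of -1.54 ± 0.57 (limma adjusted p = 0.113). Ptgs2, the inducible form, had -4.36, -3.02 and -6.68 at 24 h, against -2.36, -2.28 and -2.88 at 6 h, a change of -2.18 ± 0.61 (limma adjusted p = 0.102). For both genes all arrays at 24 h lay below all arrays at 6 h, as they did for 12.7% of all genes, and the third array lay farthest down. Without it the changes were -0.51 ± 0.23 for Ptgs1 and -1.19 ± 0.38 for Ptgs2. The 17 prostanoid genes had a median change of -0.55, and 0.04 without the third array. Ptgfr, the receptor for prostaglandin F2 alpha, had 0.23, -0.35 and 0.65 at 24 h, against -0.86, -1.55 and -1.40 at 6 h, a change of 1.45 ± 0.41 (limma adjusted p = 0.102). Akr1c14, a reductase of steroids and prostaglandins, was read well above background on 1 of 3 arrays at 24 h and on none at 6 h.

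Stress and defence lists gave no gene past the threshold. Values in brackets beside the changes of these lists and genes are those without the third array at 24 h. The 26 NRF2 genes of the oxidative stress response had a median change of -0.06 (0.03). Gsta1, a glutathione transferase, had levels of 1.04, 0.05 and 3.57 at 24 h, against -0.89, -1.41 and -0.37 at 6 h, a change of 2.45 ± 0.63 with a limma adjusted p of 0.0921 (1.44). Gsta3, of the same family, had 1.01 ± 0.30 (1.19), and Gpx2, a glutathione peroxidase, -1.34 ± 0.38 (-1.22). The 17 heat shock genes had a median change of 0.56 (0.35), or 0.38 on all arrays without the 1 gene saturated on all 6, with Hsp90ab1 at 1.29 ± 0.40 (0.71) and Hsph1 at -2.87 ± 0.91 (-2.39). At 24 h, 1 of 3 arrays read Hsph1 well above background. The 23 genes of the integrated and endoplasmic reticulum stress responses had -0.59 (0.15). The 18 p53 targets had 0.01 (0.08), the 23 apoptosis regulators -0.33 (-0.19) and the 25 proteasome genes 0.23 (0.38). The 21 drug metabolism and transport genes had -0.03 (-0.07), with the cytochrome Cyp2c11 at 2.89 ± 0.83 (1.95) and the efflux pump Abcb1b at -3.15 ± 0.91 (-2.51). The 17 chemokine and NF-kB genes had a median change of 0.20 (0.10), with the adhesion molecules Vcam1 at 2.30 ± 0.73 (1.07) and Icam1 at 1.11 ± 0.42 (1.07). The 19 interferon-stimulated genes had -0.02 (-0.10), with Rsad2, an antiviral enzyme, at 1.58 ± 0.40 (1.66). The 24 immediate early genes had 0.09 (-0.06), the 30 cholesterol and lipid synthesis genes -0.26 (0.05) and the 17 circadian clock genes -0.02 (-0.19).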

How the data were processed

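The deposited scanner files hold intensity values, per the file headers from Agilent Feature Extraction 9.5.3.1 on build rn3: background-subtracted brightness, not scaled between arrays. The authors' deposited series table, used as an alternative, holds a ratio. The scale was checked against the scanner values: signal over the array median, over the mean of the 2 untreated arrays. RNA was extracted with Trizol and amplified with the Agilent low-input linear kit, per the labels' protocols.

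Signals of non-control spots were log2-transformed, and each array's 75th percentile was subtracted. Spots marked as outliers by the scanner software were left out and saturated spots kept. Probes entered if all arrays of 1 or more of the 7 groups read them well above background (35069 of 41012). Each gene was represented by its brightest such probe (30408). Of 3781 genes with several probes, 0 had probes called in both directions. Symbols came from an accession for 10735 probes, a gene identifier for 2251, a symbol for 5373 and a synonym for 3571, and 19082 kept the file's name. RefSeq tables were used for names alone.

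Testing used limma (version 3.58.1, R 4.3.3), fitting all 20 arrays by group, empirical Bayes moderation, two-sided tests and Benjamini-Hochberg adjustment at 0.05. Where no array of a group read a spot above background the fold is a bound, against the lowest signal well above background on each array, and a spot saturated on all arrays of one group gave a bound as well. The median SE of a change was 0.49, and the number of arrays limits the precision. No 2 arrays held the same values (highest correlation 0.979). Files were read with Python 3.11.15 and pandas 2.3.3.

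In each direction up to 12 genes with a symbol were named, those past the threshold by change and then the smallest p, each with non-overlapping arrays and a change of at least 1. Lists gave up to 2 members in each direction by p, and interactions the genes past the threshold or the 2 smallest p in each direction; Ptgs1 and Ptgs2 were named in any case. Other named genes were chosen after their values were seen. The comparison, lists and genes were chosen with earlier results of these data known. A few genes that the rule gives are not reported here. Exon and UTR annotation on rn3 was not used here.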

Additional observations from a re-analysis of the deposited data

Results flagged for a closer look

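LOC291521, which the array annotates as resembling a spindlin-like protein, was singled out because its change, 24 h minus 6 h, differed between concentrations by the test of the difference itself. The fitted change at 1/5 minus that at 1 was 5.09 ± 0.64 on the log2 scale (SE, limma adjusted p = 0.0120). The change was 0.40 at 1/5, where no array read the probe well above background, and -4.70 at 1, where the 3 arrays at 6 h did and the 3 at 24 h did not. At 1/25 it was -1.09, with no array of either group well above background. Over 24 alternatives it passed in 14. Leaving out any 1 array at 6 h of 1/5 gave limma adjusted p of 0.0512 to 0.0723, and leaving out any 1 array at 24 h of 1 gave 0.0552 to 0.0666. The cause was not tested.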

How the results depend on the processing

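The count of 30 genes depended on how the spread was estimated. It was 12750 with array weights, where the third array at 24 h had the lowest weight of the series (0.0396, against up to 9.05), and 13971 with slide as a random block (consensus correlation -0.168). It was 0 with the 6 arrays alone (3460 genes at an unadjusted p under 0.05). There fewer samples enter the fit and the spread is that of these 6 arrays. With the replicate block the count was 0 as well (2779 unadjusted). Same-numbered arrays did not deviate together (correlations of -0.02, -0.18 and -0.21), so the numbers were not taken to pair the arrays. Quantile normalization gave 209 genes, 26 of them among the 30, and 55 without the third array at 24 h, a setting chosen after seeing the data. The 75th percentile over detected probes gave 108. Leaving out 1 array gave 2 to 11658. The other 8 settings gave 20 to 43. The cause was not tested. Scaling moved the median of all genes from -0.09 to 0.39 with the array median and to -0.50 with detected probes.

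For the difference between 1/5 and 1, the 1 gene became 0 with normexp, quantile normalization, a robust fit and the replicate block, 2 with no filter, 5 with slide as a random block, 2439 with array weights, and 0 to 2 with 1 array left out. The settings that leave out an array at 1 or 1/25 were chosen after seeing the data. For 1/5 and 1/25, the count of 0 became 2 with quantile normalization, 46 with array weights and 0 to 1 with 1 array left out, and was 0 with the replicate block.

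Of the 24 genes named first by change or p, Slc24a3 changed sign, to -0.0476 with the mean of its probes, and the other 23 did not. Among list members, Alas2 (to -0.21) and Cdh5 (to -0.05) are examples of a changed sign without the third array at 24 h. Other members changed sign too and were not counted, and the medians of 11 of 28 lists changed sign in that fit. Other settings were not examined for single list members. Akr1c15 passed in 18 of 21 alternatives, Chrnb1 in 18 of 20 and Thbd in 16 of 21. List medians changed sign in 0 to 14 of 28 lists, most with quantile normalization without the third array at 24 h. Dim spots on that array limit what could be measured at 24 h: 22324 genes were well above background on all arrays at 24 h, against 28494 at 6 h.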

Other observations

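A few genes passed in the fit without the third array at 24 h and not in the fit with all arrays. They lie outside the naming rule and were chosen after their values were seen, and other settings were not examined for them. Gypc, which encodes glycophorin C of the red cell membrane, had -7.69, -7.20 and -3.84 at 24 h, against -4.94, -3.36 and -4.71 at 6 h. Its fitted change was -1.91 with all arrays (limma adjusted p = 0.115) and -3.11 ± 0.46 without the third array at 24 h (limma adjusted p = 0.0250). The first and second arrays at 24 h read Gypc below their lowest signal well above background, so the size of its fall was not measured. Ilrun, an inhibitor of innate immune signalling, had -1.42, -1.55 and -1.07 at 24 h, against -0.34, -0.40 and -0.23 at 6 h, and its change was -1.03 with all arrays and -1.16 ± 0.18 without the third (limma adjusted p = 0.0372). The other 3 were BE107525 at -1.26, AI406538 at 1.75 and LOC684195 at 1.79.

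The EST BM391921 lies 7 bases from a probe of Ptprb, a receptor phosphatase of endothelium, on chromosome 7. BM391921 had levels of -6.12, -7.59 and -6.74 at 24 h, against -1.24, -3.16 and -2.45 at 6 h, while Ptprb had 1.80, 1.41 and 2.70 at 24 h, against 1.27, 1.59 and 1.52 at 6 h. The coordinates of these probes are written in opposite orders.

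Probe composition moved with the change over all genes. The 20% of genes whose probes had the lowest GC content had a median change of 0.45 (1.04 on the third array at 24 h) and held 12 of the 30 genes past the threshold, and the 20% next to the highest had -0.30 and held 2.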
